A study of Mus musculus with 9 samples.

Results

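Transcripts of 10 receptor tyrosine kinase genes that kinase inhibitors act on (Kit, Met, Ret, Egfr, Erbb2, Erbb3, Fgfr1, Fgfr2, Fgfr3 and Fgfr4) were read in mouse pancreatic neuroendocrine tumors and islets. The genes were chosen by name, with no threshold on a measured value, but with earlier results of these data known. All 10 were among the 54347 genes of the table, and all 10 were among the 15532 genes that reached 1 CPM (counts scaled to a common library size) in 3 or more of the 9 libraries, which were the genes tested. The tumors came from INS-p25OE mice, which carry Ins2-rtTA (a doxycycline-dependent activator driven by the insulin promoter) and tetOp-p25GFP (the Cdk5 activator p25 fused to GFP), and which received doxycycline in drinking water from weaning. M1, M2 and M3 were functional tumors and M4, M5 and M6 non-functional tumors. The titles of M1 to M3 carry the word Inulin, and this mark separated the groups. M2 came from a female and all other samples from males. NI1, NI2 and NI3 are labelled as normal beta islets of C57BL/6 mice without the transgenes. Each sample gave 1 library. The labels give no ages and do not say whether islets of several mice were pooled, so p-values measure the spread between these libraries. Since rtTA is driven by the insulin promoter, the model starts from insulin-producing cells, but each tumor library holds the RNA of all cells of the sample.

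Receptor tyrosine kinases are membrane proteins that bind a growth factor outside the cell, pair up and phosphorylate each other and adaptor proteins inside it. Their signals pass through Ras, Raf, Mek and Erk and through PI3 kinase and Akt, and feedback inhibitors such as the Sprouty proteins dampen them. Kit binds stem cell factor, Met binds hepatocyte growth factor, and Ret binds ligands of the GDNF family together with GFRα co-receptors. The ERBB receptors bind EGF-like ligands and neuregulins, and the FGFR receptors bind fibroblast growth factors. Inhibitors of several of these receptors are in clinical use against tumors.

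The library labelled NI1 stood beside the tumor M6. Over the 15532 tested genes, on log2(CPM + 1), it was 39.6 units of Euclidean distance from M6, the smallest of the 36 distances between libraries. NI2 and NI3 were 60.1 apart. NI1 was 89.1 from M1 and 94.6 from NI2, and thus nearer to NI2 than to M5 (99.4), M4 (102), M3 (108) and M2 (113), and it was 106 from NI3. Cdk5r1, the gene for the p25 precursor p35, was at 149 to 401 CPM in the 6 tumors and at 18.4 and 12.5 CPM in NI2 and NI3, but at 280 CPM in NI1. Results against the islets are therefore given with all 9 libraries, without NI1 and without both NI1 and M6. Library totals ran from 36468280 to 63637175 counts. A count of 3 corresponded to 0.0471 to 0.0823 CPM by library total alone, before the scaling given below. Levels near or under these values rest on a few counts and are given as they stand. Mitochondrial transcripts took 32.1% of the counts in M4 and 1.76% to 8.41% in the other libraries. The summed level of 7 beta cell markers was 17780 to 115700 CPM in tumors, 325400 and 360900 CPM in NI2 and NI3 and 120900 CPM in NI1. NI3 also held 5873 CPM of 9 acinar markers, against 382 CPM in NI2, 316 CPM in NI1 and at most 213 CPM in a tumor. CPM values here were scaled by TMM, edgeR's correction for differences in RNA composition.

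Kit was the receptor with the largest difference between tumors and islets among the 10. Kit (ENSMUSG00000005672) lies on the plus strand of chromosome 5 of GRCm38 from 75574916 to 75656722. In the functional tumors M1 to M3 its level was 69.2, 27.9 and 51.9 CPM, and in the non-functional tumors M4 to M6 it was 49.3, 16.3 and 38.6 CPM. NI2 held 7.88 CPM, NI3 9.49 CPM and NI1 33.9 CPM. All 6 tumors were thus above NI2 and NI3, while NI1 lay inside the range of the tumors. Kit was the single member for which all 6 tumors lay above NI2 and NI3, as 16.6% of all tested genes did. With all 9 libraries, 0 of the 10 members passed an adjusted p of 0.05, where 0.258% of tested genes did, and Kit had a log2 fold change of 1.30 ± 0.56 (tumors over islets, standard error after the sign ±, adjusted p = 0.236 from the quasi-likelihood model of edgeR, adjusted by Benjamini and Hochberg's method). DESeq2 also called 0 of the 10 (adjusted p = 0.102 for Kit), where it called 764 of the 15532 tested genes higher and 488 lower. Kit was the 1 member higher in tumors with an unadjusted p below 0.05 by edgeR, where 10.7% of tested genes were.

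Without NI1, Kit was the 1 member that passed the test. Its log2 fold change was then 2.28 ± 0.53 (4.86-fold, adjusted p = 0.0315 by edgeR), in a fit that called 5.34% of tested genes higher and 3.17% lower in tumors. Without both NI1 and M6 it was 2.30 ± 0.56 (4.94-fold, adjusted p = 0.0368 by edgeR), where 5.75% of genes were called higher. With M6 alone left out, it stayed at 1.33 (adjusted p = 0.233 by edgeR). It was 0.96 without NI2 and 1.01 without NI3 (adjusted p = 0.638 and 0.668 by edgeR). The fits in which Kit passed thus had NI2 and NI3 as their only islet libraries. Because these are bulk samples, more cells that carry a transcript and more of it per cell cannot be told apart. Mast cells, which depend on Kit, were sought through 7 marker genes, none of which was at 0 in every library. Their summed level was 0.0793 to 7.11 CPM in tumors and 0.0743 and 0.171 CPM in NI2 and NI3. The sum was 0.282, 3.35 and 7.11 CPM in M1 to M3 and 0.0793, 2.90 and 0.933 CPM in M4 to M6. It was thus highest in M3, with the second highest Kit level (51.9 CPM), and lowest of the tumors in M4, with the third highest (49.3 CPM). In NI1 it was 0.531 CPM. The sums of M4 and NI3 lay near the level of 3 counts, 0.0823 and 0.0595 CPM by library total. Of the 7 markers, only 1, Tpsb2, passed the filter. The order of these sums therefore rests on few counts, and the part of mast cells in the Kit level was not tested. Proliferation markers also differed between the tumors and NI2 and NI3. The summed level of Mki67, Top2a, Cdk1, Ccnb1 and Birc5 was 264 to 791 CPM in tumors and at most 124 CPM in NI2 and NI3. In NI1 the sum of these proliferation markers was 247 CPM, beside 264 CPM in M6. Their part in the result was not tested.

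**Figure D1:**
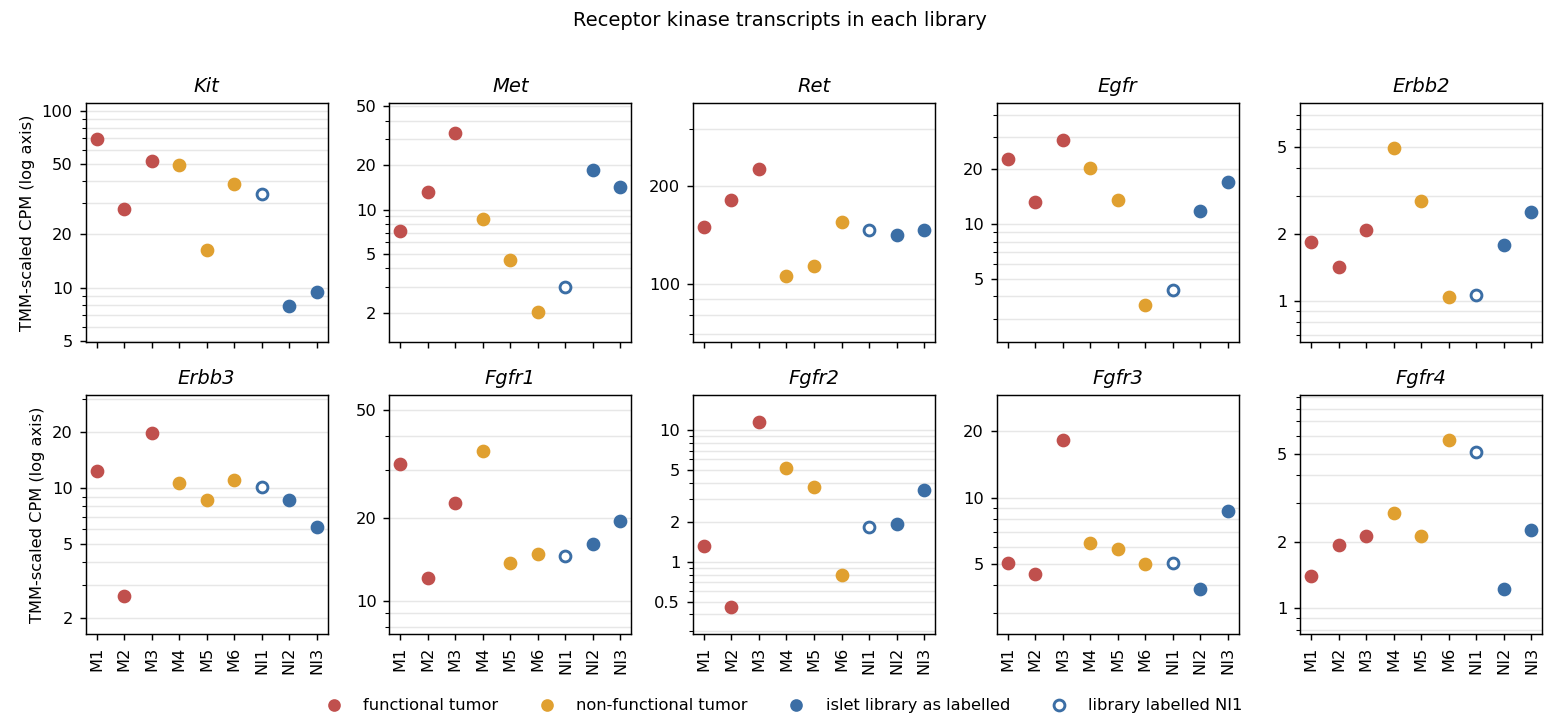
TMM-scaled CPM of each of the 10 receptor genes (log axis, 1 panel a gene) in the 9 libraries, with functional tumors in red, non-functional tumors in orange, islet libraries in blue and NI1 as an open circle. Kit lies at 16.3 to 69.2 CPM in all 6 tumors, above NI2 and NI3, and NI1 sits close to M6 in most panels.

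The DNA just before the annotated gene is shown for Kit because Kit was the member that passed the test, and for Met because Met had the widest range over the tumors after Fgfr2. RefSeq starts on GRCm38.p6 were given for 7 of the 10 members, and motifs were sought in the 250 bases before each. The first RefSeq start listed lay inside the GENCODE gene for both, so that the last 71 bases of the Kit window and the last 157 of the Met window fell within the gene. The bases before the GENCODE gene are printed from 5′ to 3′, chr5:75574737-75574915 (plus strand) for Kit and chr6:17463707-17463799 (plus strand) for Met, with capitals for the GC box GGGCGG, a binding motif of Sp1-type factors, sought on both strands as GGGCGG and CCGCCC.
Kit: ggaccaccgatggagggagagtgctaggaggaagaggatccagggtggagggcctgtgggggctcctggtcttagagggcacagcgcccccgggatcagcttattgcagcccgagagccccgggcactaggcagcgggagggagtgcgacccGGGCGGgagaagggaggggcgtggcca
Met: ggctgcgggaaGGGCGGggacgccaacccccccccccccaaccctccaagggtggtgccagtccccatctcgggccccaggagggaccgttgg
The whole window of Kit held 1 such motif, at -98 from the RefSeq start, which is printed. That of Met held 3, of which the one at -239 is printed and those at -117 and -20 lay within the GENCODE gene. Of 32851 RefSeq windows of this length, 32.7% held at least 1. The windows of Kit and Met were 70.8% and 74.0% G and C, and neither held the letters TATAAA (on either strand), which 12.4% of windows held. Across the 7 members, 5 had a GC box in at least 1 window, and Erbb2 and Fgfr2 had none. The Fgfr2 window stood apart with 44.0% G and C and 2 CG pairs, where the windows of the other 6 members held 60.8% to 74.0% and 11 to 24 CG pairs.

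Ret, a receptor of neuroendocrine and neural crest cells, was the most abundant of the 10 per unit of length in every library. Ret (ENSMUSG00000030110) lies on the minus strand of chromosome 6 from 118151745 to 118197718. Its level was 149, 181 and 226 CPM in M1 to M3, and 106, 113 and 155 CPM in M4 to M6. The 3 libraries labelled as islets lay at 146, 142 and 146 CPM, within the range of the tumors. The spread of Ret over the islets was small (145 ± 2.55 CPM, SD, n = 3), and over the tumors it was larger (155 ± 44.5 CPM, SD, n = 6). Its log2 fold change, tumors over islets, was 0.10 ± 0.24 (adjusted p = 0.855 by edgeR) and 0.10 ± 0.29 without NI1. Ret thus differed between tumors and islets by less than its standard error.

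Met, the receptor of hepatocyte growth factor, had the largest log2 fold change of the 10 between functional and non-functional tumors, given further on, and a wide range within each. Met (ENSMUSG00000009376) lies on chromosome 6 from 17463800 to 17573980. Its level was 7.21, 13.2 and 32.9 CPM in M1 to M3 and 8.60, 4.59 and 2.04 CPM in M4 to M6, a range of 16.1-fold. NI2 and NI3 were at 18.6 and 14.2 CPM, and NI1 was at 3.02 CPM. The tumors lay on both sides of NI2 and NI3, with M3 alone above both. Against islets, the log2 fold change was -0.06 ± 0.79 with all libraries and -0.52 ± 0.81 without NI1 (adjusted p = 0.975 and 0.721 by edgeR). In fits of 1 tumor group against the 3 islet libraries, the log2 fold change of Met was 0.58 for functional tumors and -1.21 for non-functional tumors, neither past the threshold (adjusted p = 0.685 and 0.455 by edgeR).

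Of the ERBB receptors, Egfr, which binds EGF and TGF-alpha, was at 22.7, 13.3 and 29.1 CPM in M1 to M3 and 20.3, 13.6 and 3.59 CPM in M4 to M6. NI2 and NI3 were at 11.8 and 17.1 CPM, and NI1 was at 4.34 CPM. M6 and NI1 were the lowest 2 libraries for Egfr, and the other tumors overlapped NI2 and NI3. Its log2 fold change was 0.62 ± 0.59 (adjusted p = 0.581 by edgeR), and 0.24 ± 0.61 without NI1. Egfr (ENSMUSG00000020122) lies on chromosome 11 from 16752203 to 16918158.

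Erbb3, which binds neuregulins and has little kinase activity of its own, was at 12.4, 2.63 and 19.7 CPM in M1 to M3. It was at 10.6, 8.60 and 11.1 CPM in M4 to M6 and at 10.1, 8.66 and 6.17 CPM in NI1 to NI3. M2, the single female, had the lowest level of all libraries, and the groups overlapped. The log2 fold change was 0.38 ± 0.49 (adjusted p = 0.696 by edgeR). Erbb2, the partner receptor without a known ligand, was low throughout, at 1.85, 1.42 and 2.09 CPM in M1 to M3, 4.95, 2.85 and 1.04 CPM in M4 to M6, and 1.06, 1.78 and 2.53 CPM in NI1 to NI3. Its highest level stood in M4 and its lowest in M6 beside NI1. The log2 fold change was 0.40 ± 0.55 (adjusted p = 0.720 by edgeR), and 0.05 without M4. Erbb2 overlaps the tested gene Mien1 on the opposite strand in the annotation, and whether the counting used strand is not stated. Erbb3 lies on chromosome 10 from 128567523 to 128589652 and Erbb2 on chromosome 11 from 98412470 to 98437716. Erbb4, the fourth ERBB receptor, was not a member and did not pass the filter, with at most 1.13 CPM, reached in M6, and 1.11 CPM in NI1.

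Among the FGF receptors, Fgfr1 was at 31.8, 12.1 and 22.9 CPM in M1 to M3, 35.4, 13.7 and 14.9 CPM in M4 to M6, and 14.5, 16.1 and 19.5 CPM in NI1 to NI3. M1, M3 and M4 were above all islet libraries and M2 and M5 below them. Its log2 fold change was 0.38 ± 0.37 (adjusted p = 0.593 by edgeR). Fibroblasts carry Fgfr1 as well, and 6 fibroblast markers summed to 2049 CPM in M4 and 713 CPM in M1, the tumors with the highest Fgfr1. The sum was 988 CPM in M3 and 901 CPM in M2, which had the lowest Fgfr1 of the tumors, so both exceeded M1. It was 458.5 CPM in M5, 103 CPM in M6, 119.5 CPM in NI1, and 138 and 182 CPM in NI2 and NI3. The part of these cells in the Fgfr1 level was not tested. Fgfr1 (ENSMUSG00000031565) lies on chromosome 8 from 25513654 to 25575718.

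Fgfr2 had the widest range of the members over the tumors, 25.5-fold. It was at 1.31, 0.453 and 11.5 CPM in M1 to M3 and 5.19, 3.69 and 0.792 CPM in M4 to M6, against 1.83, 1.95 and 3.54 CPM in NI1 to NI3. M3 was highest, and M2 was lowest, so the functional group alone spanned the whole range. The counts behind these values were low, from 32 in M2 to 635 in M3. The log2 fold change against islets was 0.65 ± 0.92 with all tumors (adjusted p = 0.727 by edgeR), and -0.10 without M3. Its annotated span on chromosome 7, from 130162451 to 133123350, covers 23 other tested genes, and its summed exon length of 10328 bases exceeds that of its longest transcript, 4429 bases. Fgfr3, on chromosome 5 from 33721674 to 33737068, was at 18.2 CPM in M3, at 4.53 to 6.22 CPM in the 5 other tumors and at 5.07, 3.86 and 8.67 CPM in NI1 to NI3. M3 therefore carried the mean of the functional group. The log2 fold change of Fgfr3 against islets was 0.35 ± 0.51 (adjusted p = 0.737 by edgeR), and -0.14 without M3.

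Fgfr4, the receptor of endocrine FGFs in liver, was at 5.75 CPM in M6 and 5.07 CPM in NI1. It was at 1.39, 1.93 and 2.13 CPM in M1 to M3, at 2.70 and 2.11 CPM in M4 and M5, and at 1.22 and 2.26 CPM in NI2 and NI3. M6 and NI1 stood above all the other libraries. The log2 fold change against islets was -0.10 ± 0.57 with all libraries, 0.62 ± 0.62 without NI1 and 0.24 ± 0.51 without both (adjusted p = 0.945, 0.562 and 0.806 by edgeR), so its sign rested on these libraries. Fgfr4 lies on chromosome 13 from 55152640 to 55168759.

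**Figure D2:**
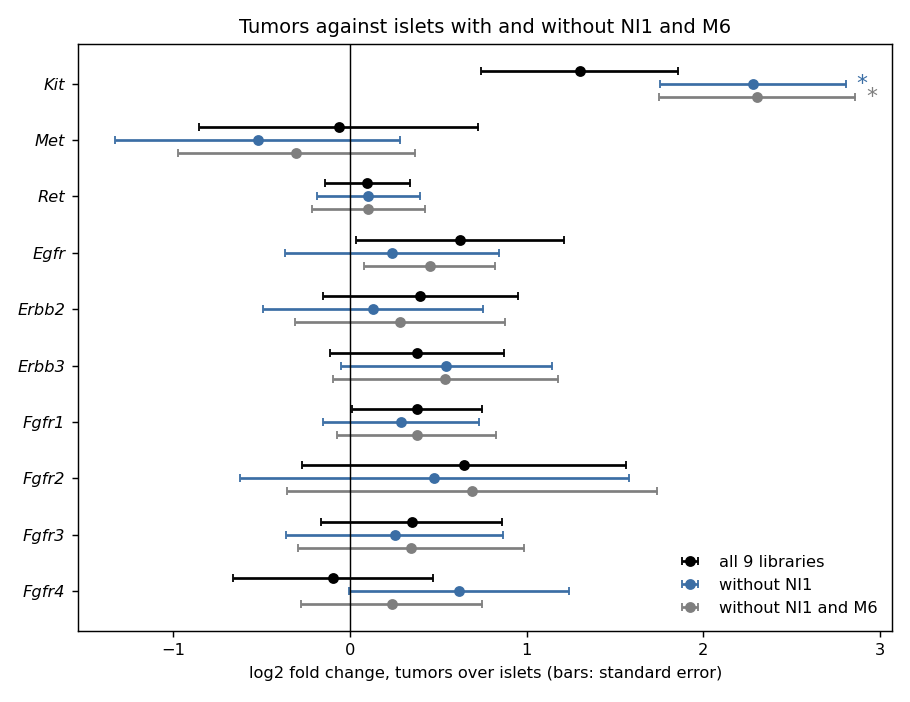
Log2 fold change of each receptor in tumors over islets (points, with the standard error as bars) from fits with all 9 libraries (black), without NI1 (blue) and without NI1 and M6 (grey), where an asterisk marks an adjusted p under 0.05. Kit moves from 1.30 to 2.28 when NI1 is left out and passes the threshold, and the bars of most other members reach over or close to 0.

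Across the set, 8 of the 10 members had a log2 fold change above 0 in tumors against islets, with a median of 0.38, where 8150 of the 15532 tested genes did, with a median of 0.03. Without NI1 the median of the members was 0.27 and that of all genes 0.05. For none of the 10 did all 6 tumors lie on the same side of all 3 islet libraries, as 7.67% of all tested genes did. Apart from Kit, the adjusted p of the members stayed between 0.307 and 0.997 over the 18 alternative fits. The members varied widely between tumors. The SD of log2(CPM + 1) over the 6 tumors was 1.20 for Fgfr2, 1.19 for Met, 0.96 for Egfr and 0.84 for Erbb3, against a median of 0.40 for all tested genes, and 0.41 for Ret.

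The high values gathered in M3. Of the 10 members, 6 (Met, Ret, Egfr, Erbb3, Fgfr2 and Fgfr3) were higher in M3 than in any other tumor, where 16.8% of all tested genes were highest in M3. M2 had the lowest level of Erbb3, Fgfr1, Fgfr2 and Fgfr3 among the tumors, where 19.6% of genes were lowest in M2, and M6 the lowest of Met, Egfr and Erbb2, where 14.0% were lowest in M6. These counts describe 6 single tumors and carry no test.

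Per kilobase of exon, the order of the receptors was led by Ret and Kit in the tumors. The median level over 6 tumors was 22.5 CPM per kb for Ret and 4.93 CPM per kb for Kit. Next came Fgfr1 (1.91), Erbb3 (1.80), Egfr (1.50), Met (1.03), Fgfr3 (0.760), Fgfr4 (0.599), Erbb2 (0.379) and Fgfr2 (0.242), all in CPM per kb. The ranges of Ret and Kit over the tumors did not overlap, and Kit was above Fgfr1 in all 6 tumors although their ranges overlapped. All later neighbours in this order overlapped. In NI2 and NI3 the order was different below Ret. There Ret (21.3 CPM per kb) was followed by Met (2.14) and Fgfr1 (1.80), and Kit (0.975) came after Egfr and Erbb3. Of the neighbours in that order, Ret and Met, and Fgfr1 and Egfr, did not overlap between these 2 libraries. The order below Ret depended on the length used. With the longest transcript as the length, Kit took 3.9% of the summed level in NI2 and 4.4% in NI3. Egfr then took 3.0% and 4.1% and Erbb3 3.8% and 2.5%, both below Kit. Fgfr1 (8.4% and 9.4%) was then above Met (7.2% and 5.0%). Per kilobase of exon, the summed level of the 10 was 25.5 to 56.3 CPM per kb in tumors, highest in M3, and 29.8 and 31.8 CPM per kb in NI2 and NI3.

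As a share of that sum, Ret took 48.1% to 74.5% in tumors and 70.4% and 68.2% in NI2 and NI3. Kit took 7.16% to 19.6% in tumors, a median of 11.6%, against 2.97% and 3.35% in NI2 and NI3 and 11.9% in NI1. Kit's share in every tumor was above that in NI2 and NI3. Within the ERBB receptors, Egfr and Erbb3 together led in all libraries, with Egfr at 62.3% in M2 and 13.0% in M6. Erbb3 took 75.2% in M6 and 71.3% in NI1, and at most 52.4% in the other libraries. Within the FGF receptors, Fgfr1 took 35.2% to 72.5% in tumors. In M3 Fgfr3 (38.7%) led, and in M6 Fgfr4 led (41.6%). In NI1, Fgfr1 took 38.8% and Fgfr4 37.8%. With the longest transcript as the length, Fgfr1 led in all of these, M6 with 48.8% against 28.7% for Fgfr4 and M3 with 37.6% against 35.5% for Fgfr3.

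**Figure D3:**
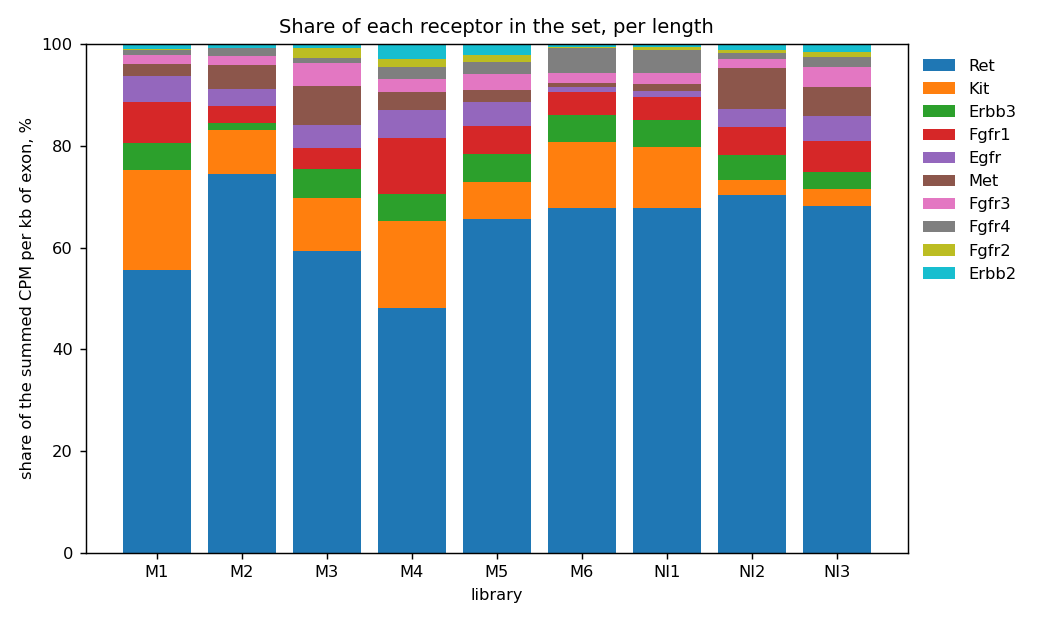
Share of each receptor in the summed CPM per kb of exon of the 10 members, as stacked bars from 0 to 100% for each library. Ret fills 48.1% to 74.5% of each tumor's bar, and the band of Kit is 7.16% to 19.6% of the tumors' bars and 2.97% and 3.35% of those of NI2 and NI3.

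Functional and non-functional tumors were compared to learn whether hormone-secreting tumors carry other receptors. None of the 10 passed an adjusted p of 0.05, and 0 of the 15532 genes tested did (0% by edgeR). Before adjustment, 732 genes reached a p below 0.05 toward the functional group and 866 toward the non-functional group, and DESeq2 called 22 higher and 89 lower at its adjusted p, none of them a member. Met and Ret were the 2 members that reached it before adjustment, both higher in functional tumors, where 4.71% of tested genes were. Met was at 17.8 ± 13.5 CPM in functional and 5.08 ± 3.31 CPM in non-functional tumors (SD, n = 3 each), a log2 fold change of 1.81 ± 0.80 (adjusted p = 0.483 by edgeR). Without M3 it was 1.01 (adjusted p = 0.742 by edgeR). M1 lay below M4, so the groups overlapped. Ret was at 185 ± 38.6 CPM in functional and 125 ± 26.5 CPM in non-functional tumors, a log2 fold change of 0.57 ± 0.22 (adjusted p = 0.459 by edgeR). M2 and M3 lay above all non-functional tumors and M1 below M6. Without M3 the log2 fold change of Ret was 0.40 (adjusted p = 0.670 by edgeR), and without M6 it was 0.76 (adjusted p = 0.256 by edgeR).

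The largest values in the other direction were those of Fgfr4 (-0.96 ± 0.61, adjusted p = 0.610 by edgeR) and Erbb2 (-0.72 ± 0.61, adjusted p = 0.711 by edgeR). Fgfr4 moved to -0.40 without M6. Erbb2 moved to -0.12 without M4 and to -1.125 without M6. The remaining log2 fold changes, functional over non-functional, were 0.80 for Egfr, 0.70 for Fgfr3, 0.52 for Kit, 0.47 for Fgfr2, 0.20 for Erbb3 and 0.06 for Fgfr1. All 10 members overlapped between the groups, where 15.0% of all tested genes did not overlap. The 7 acinar markers tested were all lower in functional tumors at an unadjusted p under 0.05. Their summed level with the 2 untested markers was at most 1.04 CPM in functional tumors and 21.8, 33.1 and 213 CPM in M4 to M6. The 7 beta cell markers summed to 89330, 33080 and 17780 CPM in M1 to M3 and to 63460, 97520 and 115700 CPM in M4 to M6. M3 thus had the lowest beta cell sum of the tumors. The part of either sum in these differences was not tested.

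The receptor profile of NI1 followed that of M6. Measured from the mean of NI2 and NI3 on log2(CPM + 1), M6 stood at 2.04 for Kit and NI1 at 1.85. For Fgfr4 the values were 1.33 in M6 and 1.18 in NI1. For Met they were -2.51 and -2.10, and for Egfr -1.73 and -1.52. For Fgfr2, M6 stood at -1.03 and NI1 at -0.37. NI1 lay between M6 and the mean of NI2 and NI3 for 9 of the 10 members, Fgfr1 being the exception, and was nearer to M6 for 8. Over the 2615 tested genes with more than 1 log2 unit between M6 and that mean, NI1 lay between them for 86.7% and nearer to M6 for 90.2%. Of the 5 members past the same cut, NI1 lay between them for 5 and nearer to M6 for 4. These values are a description of 1 library beside another and carry no test.

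**Figure D4:**
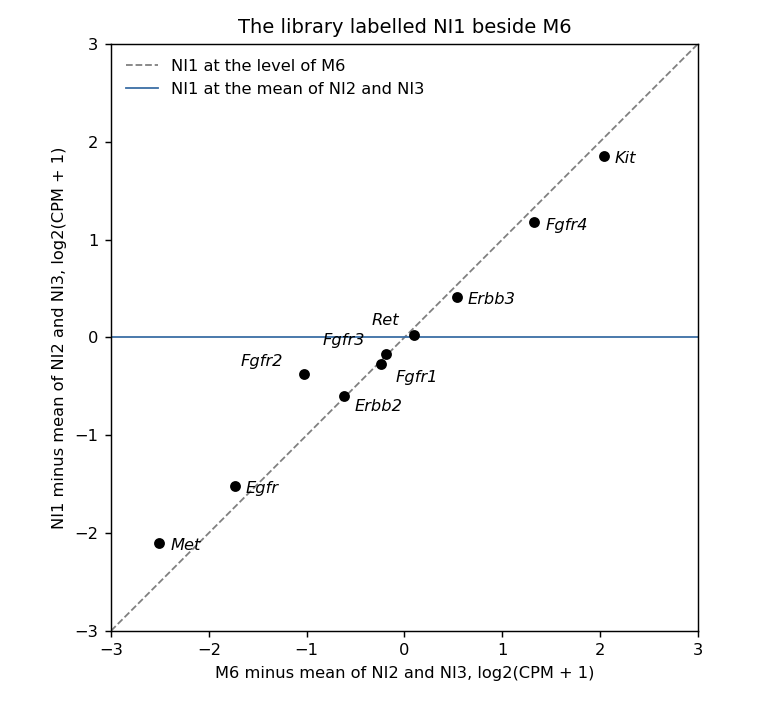
Difference from the mean of NI2 and NI3 on log2(CPM + 1) for M6 (horizontal axis) and NI1 (vertical axis), 1 point for each receptor. Most points lie near the dashed line of equal level, from Met at -2.51 and -2.10 to Kit at 2.04 and 1.85. Fgfr2, at -1.03 and -0.37, lies off that line and nearer to the level of NI2 and NI3.

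The ligands were read from a list of 36 genes, of which 14 passed the filter and 4 had no count in any library. With all 9 libraries 0 passed an adjusted p of 0.05 by edgeR (before adjustment, 3 were higher and 1 lower), and without NI1 2 were higher and 1 lower. Among all 15532 tested genes, 1655 were higher and 1419 lower before adjustment, and without NI1 829 were called higher and 492 lower. DESeq2 with all 9 libraries called 2 of the ligands, Tgfa higher and Egf lower (adjusted p = 0.0356 and 0.00465). Tgfa, which encodes the Egfr ligand TGF-alpha, was at 101, 115 and 109 CPM in M1 to M3 and 71.1, 44.6 and 74.6 CPM in M4 to M6. NI2 and NI3 were at 17.8 and 18.9 CPM and NI1 at 64.6 CPM. All tumors were above NI2 and NI3, and the log2 fold change was 1.35 ± 0.46 with all libraries and 2.23 ± 0.38 without NI1 (adjusted p = 0.178 and 0.0115 by edgeR). Egf, which encodes another ligand of Egfr, went the other way. It was at 2.21 to 7.71 CPM in tumors, 8.97 CPM in NI1 and 25.4 and 18.9 CPM in NI2 and NI3, with log2 fold changes of -1.87 ± 0.45 and, without NI1, -2.19 ± 0.45 (adjusted p = 0.139 and 0.0221 by edgeR). Fgf22 was low, at 0.425 to 1.09 CPM in tumors, 1.13 CPM in NI1 and 0.146 and 0.0991 CPM in NI2 and NI3. Its log2 fold change was 0.77 with all libraries and 2.67 without NI1, and it passed the test without NI1 (adjusted p = 0.0478 by edgeR) and not without both NI1 and M6 (0.0677). Fgf22 exceeded 1 CPM only in M3, M6 and NI1, so it passed the filter through libraries in which it was high. The fit without NI1 kept that filter, and nothing is read from its call of Fgf22. Kitl, the ligand of Kit, was at 14.3 to 31.3 CPM in tumors and 21.9, 20.5 and 16.9 CPM in NI1 to NI3, without separation (log2 fold change 0.12, adjusted p = 0.848 by edgeR). Hgf, the ligand of Met, was at 0.387 to 0.991 CPM in tumors and 1.20 and 1.41 CPM in NI2 and NI3 (log2 fold change -0.46, adjusted p = 0.639 by edgeR). Kitl and Hgf fell outside the rule for named genes and were chosen after their values were seen.

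None of the 14 co-receptors and partner receptors passed the test, of which 11 were tested (edgeR, 1 at an unadjusted p under 0.05), and DESeq2 called 0. With no filter on low counts edgeR called 1, Klb, which encodes a co-receptor of endocrine FGFs, which did not pass the filter. Klb was at 0.0364 to 0.344 CPM in tumors, 0.566 CPM in NI1 and 4.42 and 8.01 CPM in NI2 and NI3 (log2 fold change -4.41 ± 0.79, adjusted p = 0.0307 by edgeR without the filter), and it was named after its values were seen. Of the 11 tested, the 2 with the largest differences were both co-receptors of Ret. Gfra3, the receptor of artemin, was at 1.81, 14.2 and 35.6 CPM in M1 to M3, 6.34, 9.36 and 8.22 CPM in M4 to M6, 6.09 CPM in NI1, and 0.195 and 2.43 CPM in NI2 and NI3. M1 lay below NI3, and the 5 other tumors lay above both (log2 fold change 2.11 ± 1.05, adjusted p = 0.290 by edgeR). Gfra1, the receptor of GDNF, was at 12.5, 6.28 and 2.58 CPM in M1 to M3 and 7.57, 0.811 and 0.246 CPM in M4 to M6. NI1 was at 1.77 CPM, and NI2 and NI3 were at 29.6 and 17.1 CPM, above all 6 tumors (log2 fold change -1.69 ± 1.02, adjusted p = 0.376 by edgeR). Neither passed the test, with or without NI1 (adjusted p = 0.139 and 0.193 by edgeR without it).

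Adaptors and effectors between the receptors and their kinase cascades, 28 genes and all of them tested, gave 0 calls with all libraries (1 higher and 1 lower at an unadjusted p by edgeR) and 1 call without NI1. That call was Map2k1, which encodes Mek1. It was at 32.7 to 60.3 CPM in tumors, 52.9 CPM in NI1, and 96.2 and 107 CPM in NI2 and NI3, with log2 fold changes of -0.84 ± 0.25 and, without NI1, -1.09 ± 0.22 (adjusted p = 0.159 and 0.0208 by edgeR). With all 9 libraries DESeq2 also called Map2k1 lower (adjusted p = 0.0354), and no other gene of the list. Nras, a Ras gene, was at 33.4 to 51.3 CPM in tumors and 36.2, 28.9 and 27.8 CPM in NI1 to NI3 and did not pass (log2 fold change 0.44, adjusted p = 0.236 by edgeR). The median log2 fold change of the list was -0.07. Between tumor groups, 6 of these genes had an unadjusted p under 0.05 toward functional and 1 toward non-functional tumors, and 0 passed the adjusted test. Among all 15532 tested genes, 732 and 866 had such a p in these directions by edgeR.

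Of 19 feedback inhibitors, 18 were found in the table and tested, and 0 passed with or without NI1 (0 also at an unadjusted p under 0.05 with all libraries, edgeR, and 0 by DESeq2). Their median log2 fold change was -0.13. The largest were Dusp4, an Erk phosphatase, at 0.581 to 6.94 CPM in tumors and 6.20 and 8.43 CPM in NI2 and NI3 (-1.27 ± 0.79, adjusted p = 0.395 by edgeR), and Lrig3, at 0.440 to 2.30 CPM in tumors and 0.878 and 0.595 CPM in NI2 and NI3 (0.89 ± 0.64, adjusted p = 0.458 by edgeR). In both, the tumors overlapped the islets.

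Transcriptional targets of Erk held the largest log2 fold changes among the lists of pathway genes, and each gene that passed by edgeR was lower in tumors. Of 10 genes 9 were tested, and 2 fell with all 9 libraries and 3 without NI1, with a median log2 fold change of -1.30 over the list. Over all 15532 tested genes, 40 were called lower with all 9 libraries and 492 without NI1. Fos was at 1.41 to 3.92 CPM in the 6 tumors and at 156, 1045 and 440 CPM in NI1, NI2 and NI3, a log2 fold change of -7.78 ± 0.57 (adjusted p = 0.000991 by edgeR). Egr1 was at 4.70 to 17.7 CPM in tumors and at 80.7, 351 and 180 CPM in NI1 to NI3 (-4.19 ± 0.48, adjusted p = 0.00711 by edgeR). All 6 tumors lay below all 3 islet libraries for both, and for these immediate early genes NI1 lay above every tumor. Immediate early genes also respond to the handling of tissue. How long islets and tumors were handled is not given in the sources used here, so handling and group cannot be told apart. Etv5, an ETS factor, was at 7.27 to 20.5 CPM in tumors, 18.1 CPM in NI1 and 69.9 and 57.4 CPM in NI2 and NI3, and passed the test without NI1 (log2 fold change -2.29 ± 0.37, adjusted p = 0.0103 by edgeR) and not with it (-1.89, 0.137). Etv4 of the same family, named after its values were seen, had the opposite sign and did not pass by edgeR (2.16, adjusted p = 0.163). DESeq2 with all 9 libraries called 5 genes of the list, Fos, Egr1, Etv5 and Myc lower and Etv4 higher (adjusted p = 0.0279 for Etv4 and 0.0308 for Myc), and Myc too was named after its values were seen.

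**Figure D5:**
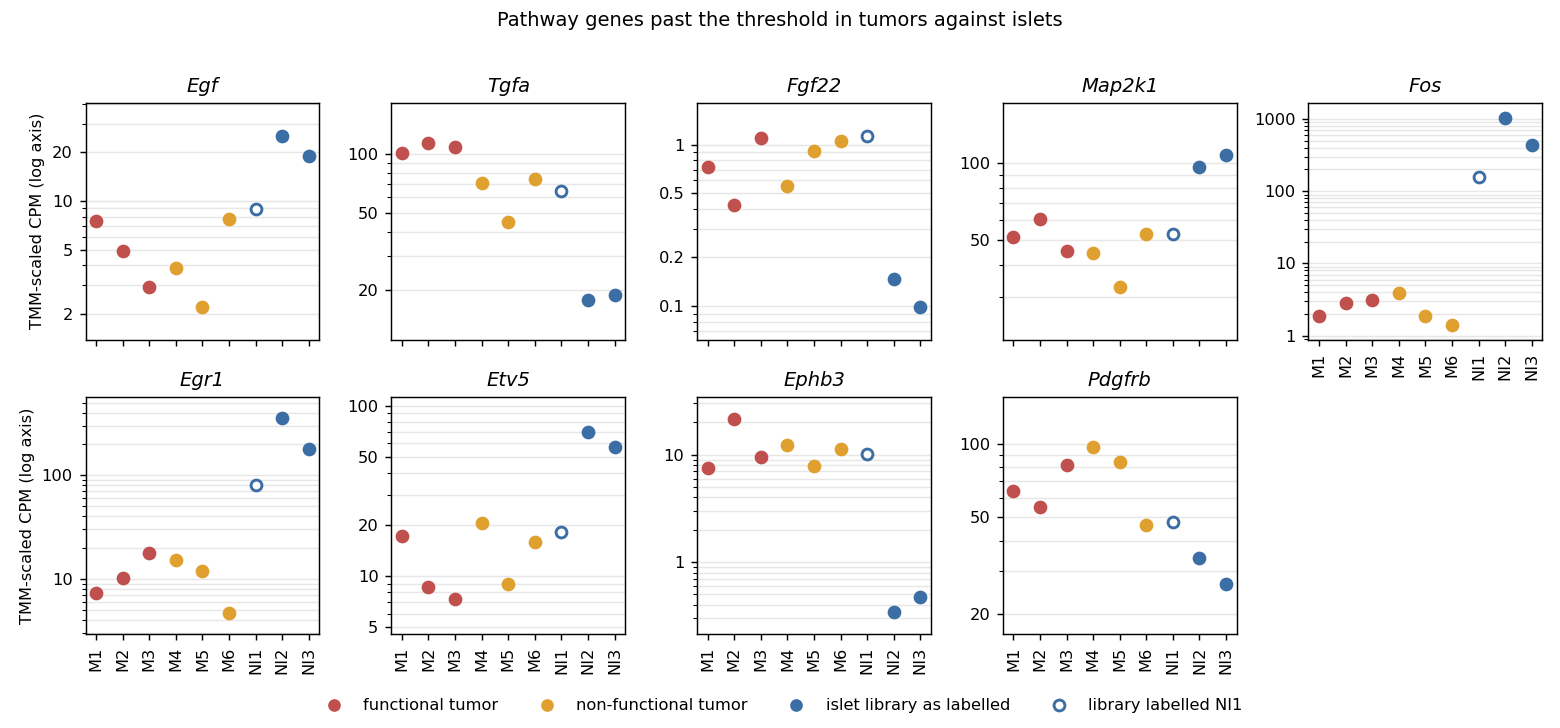
TMM-scaled CPM (log axis, 1 panel a gene) in each library for the pathway and receptor genes that passed an adjusted p of 0.05 in tumors against islets with all 9 libraries or without NI1, colored as in the plot of the 10 receptors. Fos lies at 1.41 to 3.92 CPM in the tumors and at 156 to 1045 CPM in the 3 libraries labelled as islets, while for Tgfa and Ephb3 NI1 lies among the tumors.

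The other receptor tyrosine kinases, 48 genes of which 42 were tested, were read as the comparison group. With all 9 libraries 0 passed (8 toward higher and 4 toward lower levels had an unadjusted p under 0.05, edgeR), and without NI1 2 rose and 0 fell. Over all 15532 tested genes, 1655 and 1419 had such a p in these directions, and without NI1 829 and 492 passed. DESeq2 with all 9 libraries called 6 of the list higher and 0 lower, with Pdgfrb among them (adjusted p = 0.0238) and Ephb3 not. It called 764 of all tested genes higher and 488 lower. Ephb3, an ephrin receptor, was at 7.45 to 21.4 CPM in tumors, 10.1 CPM in NI1 and 0.342 and 0.471 CPM in NI2 and NI3, a log2 fold change of 1.67 ± 0.96 with all libraries and 4.83 ± 0.60 without NI1 (adjusted p = 0.355 and 0.00352 by edgeR). Pdgfrb, the PDGF receptor of pericytes and fibroblasts, was at 46.2 to 96.9 CPM in tumors, 47.5 CPM in NI1 and 33.9 and 26.4 CPM in NI2 and NI3 (1.24 ± 0.31 without NI1, adjusted p = 0.0424 by edgeR). The median log2 fold change of these genes was 0.30, beside 0.38 for the 10 members. The 6 macrophage markers, which include Csf1r of this group, summed to 393 to 1070 CPM in tumors. In NI2 and NI3 they summed to 276 and 171 CPM and in NI1 to 381.5 CPM, and their part in these values was not tested.

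The genes whose pattern over the 9 libraries was most like that of each member were found by the root mean square difference of centred log2(CPM + 1). For Kit these were Adam12 (0.291) and Esyt3 (0.292), where the SD of Kit itself was 0.99. For Ret they were Zfp655 (0.052) and Hectd4 (0.086), for Met Cped1 (0.448) and Mfap3l (0.522), and for Egfr BB218582 (0.362) and Gria3 (0.375). For Erbb2 they were Timp2 and Rhoj, for Erbb3 Gm16638 and Zfp760, for Fgfr1 Notch3 and Cd44, for Fgfr2 Car2 and Ppp2r2b, for Fgfr3 Rara and Lin7a, and for Fgfr4 Gstm2 and Gm3052, at differences of 0.147 to 0.399. No other member was among the 2 nearest genes of any member.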

How the data were processed

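RNA-seq was done on 6 tumors and 3 islet samples, with 1 library for each. Reads were single-end. Per the labels and methods, the authors used Trimmomatic 0.38 for trimming and salmon 1.4.0 with mm10 for quantification, and the deposited values are estimated counts for genes, whole and not scaled. The table is named for TPM, but its columns do not share a sum, so the values were treated as counts. The step from transcripts to genes is not given in the sources used here. Symbols and positions came from GENCODE for GRCm38. The 15532 genes that reached 1 CPM in 3 or more of 9 libraries entered the tests, which used edgeR 4.0.16 (quasi-likelihood, TMM factors, R 4.3.3), the 6 tumors against the 3 islet libraries, and functional against non-functional tumors in 1 fit of the 3 groups. The p-values are two-sided, adjusted by the Benjamini-Hochberg method over all tested genes. The standard error was the size of the log2 fold change divided by the square root of F. DESeq2 1.42.0, RLE size factors, library totals, no filter, removal of mitochondrial genes, single tumor groups, the replicate number as a block, and omission of each library were alternatives. The fits were checked on simulated counts with the same spread for every gene and with changes larger than those of most members. That check therefore says little about fits of these libraries. Leaving out NI1 and M6 together was added after the data were seen. The 10 members and the gene lists were chosen with earlier results of these data known. Named genes of each list were those past an adjusted p of 0.05 with all libraries or without NI1, at most 4 by size of change, or else the 2 with the largest change. Levels per length used the union of exons.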

Additional observations from a re-analysis of the deposited data

Results flagged for a closer look

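Over the 6 tumors, the gap of the highest tumor to the next was large against the whole range (above Dixon's 95% critical value) for 3 of the 10 members. Met was at 32.9 CPM in M3, Fgfr3 was at 18.2 CPM in M3, and Fgfr4 was at 5.75 CPM in M6. Chance flags about 1 in 20 groups of normally distributed values, which for 10 members is 0.5. The values here were CPM without a log, so this rate need not hold for them. The share of all tested genes flagged in this way is not given, and no excess is read from the 3 flags. No lowest tumor stood apart in this way for any of the 10. The Fgfr4 level of M6 lay beside that of NI1, 5.07 CPM.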

How the results depend on the processing

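With 6 tumors and 3 islet libraries, 1 of them beside a tumor, calls against islets rested on NI1. With all 9 libraries 0 genes were called higher and 40 lower, and with 1 library left out in turn the counts ran from 0 to 829 higher (829 without NI1, 81 without M6) and from 7 (without NI3) to 492 lower (without NI1), with 0 to 1 member called. Without NI1 and M6 there were 893 higher and 558 lower calls and 1 member called. DESeq2 gave 764 higher and 488 lower, library totals 2 and 64, no filter 6 and 98, functional tumors alone 41 and 89, and non-functional tumors alone 0 and 0. Library totals moved the median of all genes to 0.25 against islets and 0.32 between tumor groups. The replicate numbers shared by M1 to M3 and NI1 to NI3 did not pair the libraries (r of deviations -0.052, 0.030 and -0.159). With the replicate block, functional tumors gave 10 higher and 25 lower calls, 0.66 for Met and -0.31 for Fgfr2, and 0 members called. Between tumor groups 0 to 1 gene was called higher with 1 library left out (1 without M2), 1 higher with no filter, and 22 higher and 89 lower by DESeq2. Signs that changed were all of members that missed the threshold. Against islets, with 1 library left out, Met ran from -0.74 to 0.41, Ret from -0.041 to 0.18, Fgfr2 from -0.10 to 1.01, Fgfr3 from -0.14 to 0.74 and Fgfr4 from -0.48 to 0.62. Met was 0.37 and Fgfr4 0.006 with library totals, Met 0.58 and Erbb2 -0.004 with functional tumors alone, Ret -0.21, Fgfr3 -0.027 and Fgfr4 0.31 with non-functional tumors alone, and Fgfr4 0.24 without NI1 and M6. Between tumor groups, with 1 library left out, Erbb3 ran from -0.43 to 0.67, Fgfr1 from -0.29 to 0.64, Fgfr2 from -1.87 to 1.00 and Fgfr3 from -0.25 to 1.03, and without NI1 and M6 Fgfr1 was -0.14 and Fgfr2 -0.001. The cause was not tested. The median shares of Ret, Kit, Egfr, Erbb3 and Fgfr1 moved by less than 1 SD in all alternatives run. Depth limits Erbb2, Fgfr2 and Fgfr4 most, whose counts ran from 32 to 635.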
